A study of Mus musculus with 11 samples.

Results

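The change from mammary ducts to terminal end buds (TEBs) was compared between basal and luminal epithelial cells, as the change in basal cells minus the change in luminal cells, which is the interaction term of one model over 4 groups. All 11 of the 11 libraries of the series entered it, with 3 from basal cells of TEBs, 3 from basal cells of ducts, 3 from luminal cells of TEBs and 2 from luminal cells of ducts. The rule fixed the contrast and no expression value, so each gene was free to change in one population only, in opposite directions, or alike in both. The interaction passed the threshold in 77 of 17370 genes, or 0.443%, with 14 positive (0.0806%) and 63 negative (0.363%).

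Bulk RNA-seq had been done on polyA RNA of cells from the glands of C57BL/6 females aged 5 weeks that carry an E-cadherin-GFP allele, in puberty. TEBs and ducts were cut apart under GFP fluorescence, and each was sorted for epithelial cells by the gate Lin-CD29+CD24+, of which those with high reporter signal (Ecad-GFP hi) were taken as luminal and those with low signal (Ecad-GFP lo) as basal, so all 4 groups share the strain, the age, the reporter and the lineage gate. Each replicate came from a pool of 2 or more mice, and the authors discarded 1 luminal duct sample for low cell numbers, which leaves replicates 1 and 3 there. The p-values below measure the spread between these pools.

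The TEB is the bulbous tip that leads the growing duct through the fat pad in puberty. Its outer cap layer holds the basal cells that mature into contractile myoepithelium along the duct behind it, and its inner body layer holds the luminal cells that go on to line the lumen. The interaction asks whether a gene's change along this axis differs between the layers.

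Each gene was tested with edgeR's quasi-likelihood test on the deposited read counts, and FDR is its p-value after Benjamini-Hochberg adjustment over all 17370 genes, with a call at an FDR below 0.05. A negative interaction means that the log2 fold change of TEB over duct was lower in basal than in luminal cells. TEB against duct was called in 230 genes in basal cells (1.32%), with 29 higher in TEBs (0.167%) and 201 lower (1.16%), and in 245 genes in luminal cells (1.41%), with 111 higher (0.639%) and 134 lower (0.771%). Of the 77 genes, 33 (0.19% of genes tested) also had the basal change called and the luminal one not, 32 (0.184%) the luminal change called and the basal one not, and 5 (0.0288%) both changes called in opposite directions. The remaining 7 had neither change called on its own. No gene with both changes called in the same direction had the interaction called, and 24 genes (0.138%) were called in the same direction in both populations without it, all lower in TEBs. A further 168 basal calls and 184 luminal calls had neither the interaction nor the other population called, so a difference between the populations was not shown for them.

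**Figure D1:**
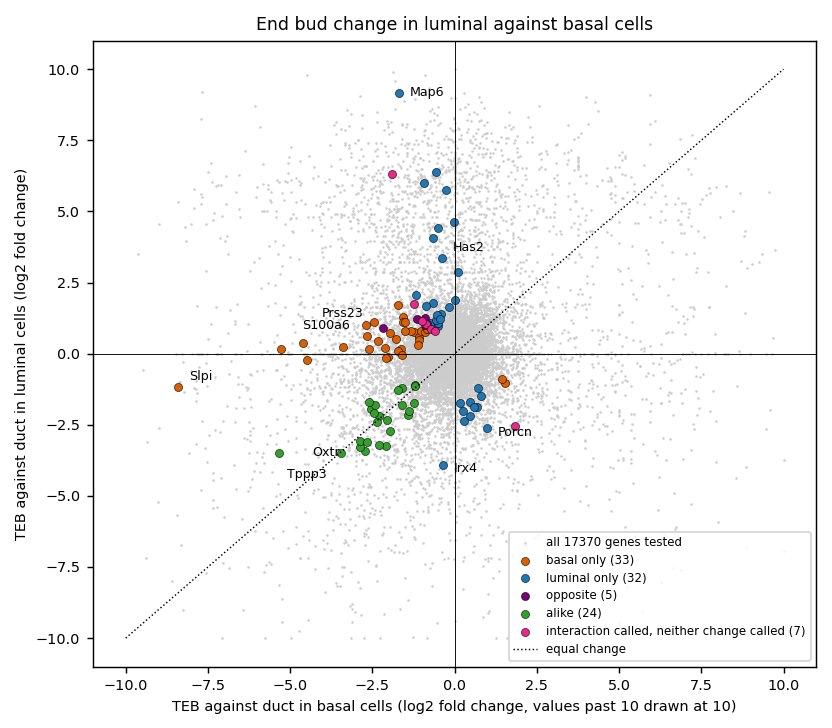
Log2 fold change of TEB over duct in basal cells (x axis) and in luminal cells (y axis), with 1 grey point for each of the 17370 genes tested, 12 of them drawn at the limit of 10, and colours for the genes of each class. Genes called for the interaction lie mostly in the upper left, with the 14 positive ones below the line at 0, and the 24 genes changed alike lie in the lower left along the dotted line of equal change. The luminal values of Map6 and of 3 other genes at 0 counts in luminal duct are fitted values without a measured fold.

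Of the 63 genes with a negative interaction, 61 had a lower estimate in basal TEB than in basal duct and 58 a higher estimate in luminal TEB than in luminal duct. Of the 14 with a positive interaction, all 14 had a lower estimate in luminal TEB and 13 a higher one in basal TEB. The 2 estimates had opposite signs in 69 of the 77. TEB and duct libraries did not overlap in counts-per-million (CPM, after TMM scaling of library sizes) in 66 of the 77 genes in basal cells and in 67 in luminal cells, against 20.8% and 43.7% of all genes tested, and in 56 in both, against 9.55% of all genes. The 77 genes were selected on these same libraries, so their signs and separation are largely set by the call and are no separate evidence. The median interaction over all genes was -0.13 on the log2 scale. With scaling by library size alone, in place of TMM, that median was -0.63, 15 genes were called, and 6.67% of calls were positive in place of 18.2%. The share of positive calls varied with the tool and the libraries, at 42.4% in DESeq2 (302 of 712), 41.3% in edgeR's likelihood ratio test (260 of 629) and 35.5% without basal TEB replicate 2 (125 of 352). At an unadjusted p under 0.05 in edgeR there were 1166 positive and 1393 negative interactions.

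With the replicate number as a block in the edgeR model, 46 interactions were called, 42 of them among the 77, with 20 basal-only, 17 luminal-only and 1 opposite call. Of the genes described below, the interaction was lost with the block in Cavin1 (FDR 0.0504), Kalrn (0.0551), Adamts9 (0.0584), Cavin3 (0.0584), Axin2 (0.0628), Slc5a6 (0.0628), Jag1 (0.0658), Lgals7 (0.0714), Coro2a (0.0785), Dnm1 (0.0792), Plekha7 (0.0792), Vcl (0.0866), Abat (0.0915), Col4a6 (0.0935), Rhbdl3 (0.0958) and Popdc2 (0.108). The basal fall of Jag1 (FDR 0.0604) and the luminal changes of Abat (0.0587), Rhbdl3 (0.0615) and Cavin1 (0.0752) were lost as well.

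Several libraries stood apart before any comparison. Totals ran from 27989137 to 49221436 counts. Genes of the mitochondrial chromosome took 37.5% of the counts in basal TEB replicate 1, 28.5% in luminal duct replicate 3 and 17.8% in basal TEB replicate 3, against 4.34% to 10.9% in the other 8. The labels held by marker level, since the 13 luminal epithelial markers (Krt8, Epcam and others) summed to between 796 and 1118 CPM in basal and between 13240 and 18690 CPM in luminal libraries, and the 16 contractile markers to between 9007 and 25880 CPM in basal and between 405 and 804 CPM in luminal libraries. Luminal duct replicate 3 also held more of the immune markers (264 CPM summed, against 14.0 in replicate 1) and of the fibroblast markers (284 against 10.2). The part of these differences in the calls was not tested, but the calls were recounted without basal TEB replicate 1 and luminal duct replicate 3. That gave 198 interaction calls, 59 of them among the 77. In bulk samples, fewer cells of a type and less RNA per cell cannot be told apart.

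The 5 genes called in opposite directions were all lower in basal TEB than in basal duct and higher in luminal TEB than in luminal duct. They were Prss23, Tgfbr2, Ehd2, Emp2 and Lamb3. All but Tgfbr2 were higher in basal than in luminal ducts, and in TEBs the levels of both layers came closer in Prss23, Ehd2 and Lamb3.

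Prss23 (Entrez gene 76453, chromosome 7, 89507783 to 89527187 of mm10) encodes a secreted serine protease and had the smallest interaction FDR. Its basal duct libraries stood at 203, 226 and 181 CPM and its basal TEB libraries at 42.1, 53.5 and 39.0 CPM, in the order of their replicate numbers. In luminal cells it was at 26.9 and 30.4 CPM in ducts and at 48.2, 57.2 and 56.1 CPM in TEBs. Duct and TEB libraries were separate in both populations, with every basal TEB library below every basal duct library and every luminal TEB library above both luminal duct libraries. The interaction was -3.09 (standard error 0.27, FDR 0.00178, edgeR), made of -2.18 in basal cells (FDR 0.000917) and 0.91 in luminal cells (FDR 0.0484). The interaction and the basal fall held with each of the 11 libraries left out, with an FDR of at most 0.0153 for the interaction, but the luminal rise was called in 3 of those 11 fits and reached an FDR of 0.208 without luminal TEB replicate 3 (edgeR). With the replicate block the luminal FDR was 0.0909.

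Tgfbr2 (Entrez gene 21813, chromosome 9, 116087695 to 116175363) encodes the receptor that binds TGF-beta ligand, a cytokine known to restrain growth of mammary ducts. Its levels were 90.3, 86.6 and 76.7 CPM in basal duct and 40.9, 52.4 and 43.1 CPM in basal TEB, and 135 and 159.5 CPM in luminal duct and 309, 356 and 392 CPM in luminal TEB. Basal TEB was the lowest of the 4 groups and luminal TEB the highest, with no overlap between any of them. The interaction was -2.15 (standard error 0.25, 95% interval -2.70 to -1.60, FDR 0.00563, edgeR) and was called with each library left out (FDR up to 0.0367). The basal fall of -0.89 had an FDR of 0.0249, was lost in 6 of 11 fits with a library left out and reached 0.131 without basal TEB replicate 3, and the luminal rise of 1.26 had an FDR of 0.0122, and 0.0748 without luminal TEB replicate 3 (edgeR). Tgfbr2 was the 1 opposite call left with the replicate block.

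Lamb3 (Entrez gene 16780, chromosome 1, 193294353 to 193343878), the beta chain of the laminin that anchors epithelium to its basement membrane, was at 714, 553 and 727 CPM in basal duct and 411, 347 and 299 CPM in basal TEB. In luminal cells it was far lower, at 23.1 and 26.8 CPM in ducts and 49.99, 49.7 and 50.7 CPM in TEBs. The luminal TEB libraries lay close together and above both luminal duct libraries, at 14.2% of the mean of basal TEB, whereas luminal duct was at 3.75% of basal duct. The interaction was -1.92 (FDR 0.0126, edgeR), lost without luminal TEB replicate 3 or 1 or basal duct replicate 1 (FDR up to 0.0526). The basal fall of -0.91 (FDR 0.0279) and the luminal rise of 1.01 (FDR 0.0349) were each called in 5 of 11 fits with a library left out, with FDRs up to 0.151 and 0.142, and in neither population with the replicate block (FDR 0.0501 and 0.063, edgeR).

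Ehd2 and Emp2 encode membrane proteins, Ehd2 an ATPase at the neck of caveolae and Emp2 a tetraspan protein of the plasma membrane. Ehd2 was at 216, 196 and 218 CPM in basal duct, 89.8, 126 and 68.8 CPM in basal TEB, 37.2 and 34.0 CPM in luminal duct and 82.3, 82.8 and 84.8 CPM in luminal TEB. Emp2 was at 199, 173 and 156 CPM in basal duct, 104, 95.9 and 93.4 CPM in basal TEB, 82.6 and 117 CPM in luminal duct and 197, 209 and 211 CPM in luminal TEB. For both genes TEB and duct libraries were separate in each population, and for Emp2 the luminal level passed the basal one in TEBs, at 210.2% of it. Their interactions were -2.37 and -1.89 (FDR 0.0126 for each, edgeR), and each was lost without basal duct replicate 1 or luminal TEB replicate 3 (FDR up to 0.0526 and 0.0526). The basal fall of Ehd2 was -1.14 (FDR 0.0194), called in 8 of 11 fits with a library left out (up to 0.0822), and its luminal rise 1.23 (FDR 0.0289), called in 6 (up to 0.135) and lost with the replicate block (FDR 0.0625, edgeR). The basal fall of Emp2 was -0.85 (FDR 0.0331), called in 4 of those fits (up to 0.163), and its luminal rise 1.04 (FDR 0.0264), called in 8 (up to 0.118), and both were lost with the block (FDR 0.0629 and 0.0625, edgeR). Ehd2 has 3 caveolar partners among the 77 genes, chosen after their values were seen. Other genes of caveolae were not counted, and the interaction was called in 0.443% of all genes. Cavin1 and Cavin3, which coat caveolae, had interactions of -1.80 and -2.12 (FDR 0.0232 and 0.0343), while that of Cavin2 was 1.92 (FDR 0.049, edgeR), where luminal duct was at 50.6 and 75.3 CPM and luminal TEB at 14.9, 26.2 and 15.2 CPM. With 1 library left out, those 3 calls were kept in 6, 3 and 3 of 11 fits.

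**Figure D2:**
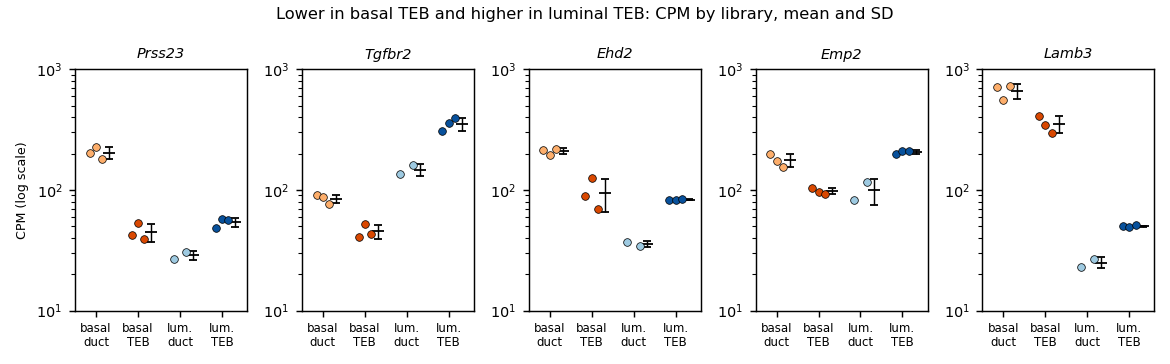
CPM on a log scale in each of the 11 libraries for the 5 genes called in opposite directions, with 1 point a library and the mean and SD of each group beside it. In every panel the basal TEB points lie below the basal duct points and the luminal TEB points above the luminal duct points.

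No gene was called in the other opposite direction, higher in basal TEB and lower in luminal TEB, in this edgeR model. Such calls numbered 4 without basal TEB replicate 2, 4 without luminal duct replicate 1, 1 without basal duct replicate 2, 3 in DESeq2, 1 in the likelihood ratio test and 1 in limma voom. The 3 genes closest to it were Porcn, Arhgap40 and Lpin2. Lpin2, a phosphatidate phosphatase of lipid synthesis, had a basal difference of 0.57 (FDR 0.141) and a luminal one of -0.61 (FDR 0.121), with an interaction of 1.18 that did not pass either (FDR 0.068, edgeR). If the larger of the basal and luminal p-values was adjusted instead, none of the 5 opposite calls was left.

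Of the 33 genes called in basal cells only, 31 fell in basal TEBs and 2 rose. The 8 named, for which the larger p of the basal and interaction tests was smallest, were Anxa2, Capg, Cx3cl1, H2-D1, Lgals9, S100a6, Sec14l4 and Slpi. In luminal cells Capg, H2-D1, Lgals9 and S100a6 were higher in every TEB library than in either duct library, Anxa2, Cx3cl1 and Sec14l4 overlapped, and Slpi was lower. None of these luminal differences was called, and luminal TEB and duct libraries did not overlap in 43.7% of all genes.

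S100a6 (Entrez gene 20200, chromosome 3, 90612894 to 90614414), a small calcium-binding protein, was at 287, 292 and 187 CPM in basal duct and 41.6, 49.96 and 29.5 CPM in basal TEB. In luminal duct it was at 863 and 912 CPM and in luminal TEB at 1332, 1368 and 1364 CPM. The basal libraries were separate and fell, and the luminal ones were separate with TEB above duct, a luminal difference of 0.61 that was not called (FDR 0.266, edgeR). The interaction was -3.27 (standard error 0.36, FDR 0.00401) and the basal change -2.66 (FDR 0.000917), both called with each library left out (edgeR).

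Lgals9 (Entrez gene 16859, chromosome 11, 78962979 to 78984924), the galectin-9 gene, fell from 78.6, 81.5 and 51.6 CPM in basal duct to 8.37, 13.9 and 10.1 CPM in basal TEB. Its luminal levels were 41.3 and 62.8 CPM in ducts and 104, 88.9 and 121 CPM in TEBs. Basal TEB was the lowest group in every library, and luminal TEB the highest. The interaction of -3.71 (standard error 0.41, FDR 0.00401, edgeR) was called with each library left out, and the luminal difference of 1.01 was not called (FDR 0.115).

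Slpi (Entrez gene 20568, chromosome 2, 164354070 to 164356507), a secreted inhibitor of leukocyte proteases, had the largest basal fall of the named genes. It was at 222, 171 and 136 CPM in basal duct and at 0, 1.12 and 0.196 CPM in basal TEB, and at 2.19 and 3.99 CPM in luminal duct and 1.37, 1.37 and 1.33 CPM in luminal TEB. Basal duct was thus far above the other 3 groups, which all lay under 4 CPM. The basal change was -8.41 (standard error 0.75, FDR 0.000917) and the interaction -7.24 (95% interval -9.37 to -5.11, FDR 0.0126, edgeR), lost without basal duct replicate 1 or luminal TEB replicate 3, up to 0.0584.

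Cx3cl1 (Entrez gene 20312, chromosome 8, 94772180 to 94782427), a membrane-bound chemokine, was at 230.3, 256 and 223 CPM in basal duct, 79.3, 83.6 and 65.9 CPM in basal TEB, 75.9 and 66.7 CPM in luminal duct and 72.2, 78.3 and 86.4 CPM in luminal TEB. Basal TEB thus lay at the level of the luminal libraries, 96.6% of luminal TEB by mean, whereas basal duct was at 332% of luminal duct. The interaction was -1.78 (standard error 0.24, FDR 0.0126, edgeR), lost without basal duct replicate 1 or luminal TEB replicate 3, up to 0.0526.

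Anxa2, an annexin that links membranes to actin, was at 196, 227 and 171 CPM in basal duct and 44.5, 53.6 and 38.1 CPM in basal TEB, and Capg, which caps actin filaments, at 67.1, 51.4 and 59.0 CPM in basal duct and 21.5, 17.2 and 13.3 CPM in basal TEB. In luminal cells Anxa2 was at 601 and 378 CPM in ducts and 571, 554 and 549 CPM in TEBs, where the groups overlapped, and Capg at 106 and 83.6 CPM in ducts and 136, 132 and 142 CPM in TEBs, where they did not. H2-D1, a class I antigen-presenting molecule, was at 193, 231 and 139.7 CPM in basal duct, 57.0, 82.7 and 58.9 CPM in basal TEB, 366 and 341 CPM in luminal duct and 574, 594 and 651 CPM in luminal TEB. All 3 genes were higher in luminal than in basal cells in both structures, and basal TEB held 8.14%, 12.7% and 10.9% of the luminal TEB level, against 40.5%, 62.4% and 53.1% in ducts. Their interactions were -2.31, -2.30 and -2.28 (FDR 0.0126, 0.0126 and 0.0127, edgeR), with FDRs of 0.0526, 0.0525 and 0.063 without luminal TEB replicate 3. All 3 were also lost without basal duct replicate 1, Anxa2 and H2-D1 without luminal TEB replicate 1, and H2-D1 without basal TEB replicate 3. H2-D1 belongs to a family of near-identical class I genes, so its reads are uncertain.

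Sec14l4 and Scin, whose basal level fell, stood far lower in basal than in luminal duct. Sec14l4, a lipid-transfer protein gene, was at 2.39, 1.76 and 3.00 CPM in basal duct and 0, 0.126 and 0.112 CPM in basal TEB, and at 27.4 and 38.0 CPM in luminal duct and 37.8, 45.1 and 43.6 CPM in luminal TEB. Scin, which severs actin filaments, was at 1.78, 2.63 and 1.36 CPM in basal duct, 0, 0.105 and 0 CPM in basal TEB, 53.4 and 26.7 CPM in luminal duct and 47.5, 44.4 and 44.1 CPM in luminal TEB. Basal duct thus held 7.29% and 4.80% of the luminal duct level. The 13 luminal epithelial markers in basal libraries summed to between 1031 and 1118 CPM in ducts and between 796 and 817 CPM in TEBs, and the part of that difference in the fall of Sec14l4 and Scin was not tested. Their interactions were -4.99 and -5.44 (FDR 0.0126 and 0.0273, edgeR), with that of Scin lost in 7 of 11 fits with a library left out (FDR up to 0.0995, without luminal TEB replicate 3) and that of Sec14l4 in 3 (up to 0.063, without the same library). Clca3a2, a calcium-activated chloride channel regulator, had no such pattern, since basal duct was above luminal duct. It went from 561, 414 and 427 to 13.9, 36.7 and 11.4 CPM in basal cells and from 126 and 289 to 134, 194 and 209.9 CPM in luminal cells, where the groups overlapped, an interaction of -4.28 (FDR 0.0232, edgeR, lost without basal duct replicate 1 or basal TEB replicate 3 or luminal TEB replicate 1, 2 or 3, up to 0.0779). A neighbouring paralogue in the Clca cluster makes its reads uncertain.

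The 2 genes that rose in basal TEBs only were Arhgap40, by its name a GTPase-activating protein, and Coro2a, an actin-binding coronin. Arhgap40 was at 13.5, 10.4 and 20.4 CPM in basal duct and 36.4, 36.0 and 55.4 CPM in basal TEB, and at 109 and 190.1 CPM in luminal duct and 83.4, 67.3 and 68.9 CPM in luminal TEB. Coro2a was at 10.8, 14.2 and 25.3 CPM in basal duct, 50.04, 36.6 and 49.0 CPM in basal TEB, 293 and 259 CPM in luminal duct and 143, 174 and 127 CPM in luminal TEB. For both genes all TEB libraries lay above all duct libraries in basal cells and below them in luminal cells, where the difference was not called. The basal level of Arhgap40 went from 9.89% of the luminal level in ducts to 58.2% in TEBs. Their interactions of 2.56 and 2.33 (FDR 0.0283 and 0.033, edgeR) were kept in 4 and 3 of 11 fits with a library left out, with FDRs up to 0.108 and 0.117 without luminal TEB replicate 3.

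Of the 32 genes called in luminal cells only, 21 rose in luminal TEBs and 11 fell. The genes named among those that rose were Axin2, Elovl4, Gja1, Has2, Lrrk1, Map6, Ptprm and Tmtc3, and by the size of their interaction also Abat and Rhbdl3. Apart from Lrrk1 and Tmtc3, each was below 5% of its basal duct level in luminal duct, so these are rises from a low luminal level.

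Has2 (Entrez gene 15117, chromosome 15, 56665627 to 56694546) encodes an enzyme that makes hyaluronan, a matrix polymer of growing tissue. It was at 3.98 and 3.33 CPM in luminal duct and at 30.4, 40.7 and 41.8 CPM in luminal TEB, and at 65.6, 72.0 and 83.8 CPM in basal duct and 42.1, 48.0 and 78.1 CPM in basal TEB. The luminal libraries were far apart while the basal ones overlapped, and luminal TEB reached 67.1% of the basal TEB level, against 4.96% in ducts. The interaction was -3.75 (standard error 0.40, FDR 0.00401) and the luminal change 3.36 (FDR 0.00377, edgeR), both called with each library left out, and the basal difference was -0.39 (FDR 0.499).

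Axin2 (Entrez gene 12006, chromosome 11, 108917828 to 108950783), a feedback inhibitor and a standard target of Wnt signalling, was at 31.8, 25.8 and 23.9 CPM in basal duct and 24.8, 27.1 and 28.2 CPM in basal TEB. In luminal duct it was at 0.0228 and 0.164 CPM, and in luminal TEB at 1.82, 2.63 and 1.753 CPM. The basal groups overlapped, and the luminal groups were separate at a low level, with TEB at 7.73% of the basal TEB level. The interaction was -4.66 (95% interval -6.30 to -3.02, FDR 0.0253, edgeR), and it was lost without basal duct replicate 1, basal TEB replicate 3 or any of the 3 luminal TEB libraries (FDR up to 0.0848), whereas the luminal rise (FDR 0.0095) was called with each library left out.

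Gja1 (Entrez gene 14609, chromosome 10, 56377300 to 56390419), the gap junction protein connexin 43 of basal cells, rose from 8.19 and 4.11 CPM in luminal duct to 22.9, 21.3 and 20.1 CPM in luminal TEB. In basal cells it was at 382, 352 and 359.7 CPM in ducts and 248, 250.4 and 195 CPM in TEBs, lower in every TEB library with a difference of -0.66 that did not pass (FDR 0.2, edgeR). The interaction was -2.44 (FDR 0.0126, edgeR, lost without basal duct replicate 1 or luminal TEB replicate 1 or 3, up to 0.0526).

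Elovl4, which elongates very long fatty acids, and Abat, which breaks down the transmitter GABA, were low in luminal cells. Elovl4 was at 0.273 and 0.0822 CPM in luminal duct and 2.73, 5.07 and 2.06 CPM in luminal TEB, with 66.4, 49.6 and 46.2 CPM in basal duct and 28.2, 39.8 and 35.1 CPM in basal TEB. Abat was at 60.7, 50.5 and 72.9 CPM in basal duct, 35.3, 54.5 and 40.3 CPM in basal TEB, 0.0228 and 0.123 CPM in luminal duct and 2.02, 1.68 and 0.462 CPM in luminal TEB. Their interactions were -4.72 (FDR 0.0126) and -4.93 (FDR 0.0441, edgeR), the first kept in 10 of 11 fits with a library left out (0.0547 without basal duct replicate 1) and the second in 2 (up to 0.129, without basal TEB replicate 3).

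In 4 genes both luminal duct libraries had 0 counts. Map6 (Entrez gene 17760, chromosome 7, 99266779 to 99337137), which stabilises microtubules, was at 1.64, 1.83 and 1.87 CPM in luminal TEB, at least 40.5-fold above the limit that 3 counts over the luminal duct group would give. In basal cells it was at 60.3, 29.8 and 33.5 CPM in ducts and 13.4, 14.4 and 10.2 CPM in TEBs, so it was lower in every basal TEB library while it appeared in luminal TEB. The basal difference of -1.70 did not pass (FDR 0.0575), and the interaction passed with each library left out (FDR 0.00317, and 0.0175 at most, edgeR). Ptprm, a receptor tyrosine phosphatase of cell contacts, Rhbdl3, of the rhomboid family, and Popdc2, which binds cyclic AMP, reached 0.157, 0.210 and 0.212 CPM, 0.269, 0.114 and 0.385 CPM and 0.381, 0.0762 and 0.270 CPM in luminal TEB, or at least 4.39-fold, 5.83-fold and 5.51-fold above that limit, which covers counting error only. The same genes were at 23.7, 17.7 and 8.59 CPM by mean in basal TEB, so luminal TEB held 0.813%, 1.45% and 2.82% of it, and the part of basal RNA in luminal libraries in these values was not tested. Over the same libraries Krt5 and Krt14, which define basal cells, were lower in luminal TEB than in luminal duct, as given below. The 15 basal identity genes summed to 271 and 428 CPM in luminal duct and to between 409 and 444 CPM in luminal TEB. By gene, their median luminal change was -2.185, with 5 called lower in luminal TEBs, against 0.771% of all genes, and 0 called higher. For Ptprm, Rhbdl3 and Popdc2 the FDR of the interaction was 0.0192, 0.0476 and 0.0476 (edgeR), kept in 8, 2 and 2 of 11 fits with a library left out, with up to 0.063 and 0.127 without luminal TEB replicate 3 for the first and last and 0.121 without basal TEB replicate 3 for Rhbdl3.

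Lrrk1, a kinase of the leucine-rich repeat family, and Tmtc3, which adds mannose to cadherins, were expressed in both populations. Lrrk1 was at 27.9 and 19.6 CPM in luminal duct and 77.5, 72.1 and 72.7 CPM in luminal TEB, and at 46.6, 37.1 and 36.4 CPM in basal duct and 35.4, 38.3 and 34.0 CPM in basal TEB. Tmtc3 was at 107, 93.5 and 94.8 CPM in basal duct, 91.9, 108 and 99.1 CPM in basal TEB, 22.4 and 13.9 CPM in luminal duct and 62.1, 75.2 and 61.9 CPM in luminal TEB. In both genes luminal TEB stood above luminal duct and the basal groups overlapped. Their interactions were -1.80 and -1.85 (FDR 0.0253 for each, edgeR), kept in 6 of 11 fits with a library left out for each, with FDRs up to 0.0995 without luminal TEB replicate 3 and 0.0793 without basal duct replicate 1.

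The named genes that fell in luminal TEBs only were Adamts9, Cst3, Irx4, Lgals7, Ltbp1, Mdk, Porcn and Slc5a6, and by size also Ggt1. Porcn (Entrez gene 53627, chromosome X, 8193846 to 8206548) encodes the acyltransferase that lipidates Wnt proteins so that they can be secreted. It was at 26.9, 37.5 and 33.1 CPM in basal duct and 87.1, 47.0 and 58.1 CPM in basal TEB, and at 24.5 and 38.0 CPM in luminal duct and 5.29, 5.12 and 4.76 CPM in luminal TEB. All 3 luminal TEB libraries lay near 5 CPM, under every other library, while the basal TEB libraries lay above the basal duct libraries with a difference of 0.98 that did not pass (FDR 0.124, edgeR). The levels of both populations were alike in ducts, with luminal at 96.1% of basal, and apart in TEBs, at 7.89%. The interaction of 3.604 (standard error 0.41, FDR 0.00479) and the luminal fall of -2.62 (FDR 0.00478, edgeR) were called with each library left out.

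Cst3, the secreted cysteine protease inhibitor cystatin C, Ggt1, which cleaves extracellular glutathione, and Ltbp1, which holds latent TGF-beta in the matrix, also fell in luminal TEBs. The first 2 were at like levels in both populations in ducts, and Ltbp1 was higher in luminal ducts. Cst3 was at 71.2, 97.3 and 99.0 CPM in basal duct, 167, 101 and 101 CPM in basal TEB, 116 and 90.4 CPM in luminal duct and 20.4, 31.9 and 15.01 CPM in luminal TEB. Ggt1 was at 155, 140.4 and 159 CPM in basal duct, 383, 166 and 237 CPM in basal TEB, 171 and 127 CPM in luminal duct and 59.5, 43.7 and 57.3 CPM in luminal TEB. Ltbp1 was at 55.7, 24.7 and 56.5 CPM in basal duct, 89.3, 63.3 and 67.6 CPM in basal TEB, 101 and 76.4 CPM in luminal duct and 28.6, 25.4 and 19.2 CPM in luminal TEB. In each gene luminal TEB was the lowest group and basal TEB lay above basal duct in every library, without a call. The interactions were 2.66, 2.27 and 2.55 (FDR 0.0253, 0.033 and 0.033, edgeR), kept in 6, 4 and 5 of 11 fits with a library left out, with FDRs up to 0.0819 and 0.101 without basal duct replicate 1 and 0.114 without luminal TEB replicate 3.

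Slc5a6, the transporter of biotin and pantothenate, was a luminal gene that fell, from 176 and 104 CPM in luminal duct to 37.3, 19.7 and 25.1 CPM in luminal TEB, with 9.26, 9.63 and 5.98 CPM in basal duct and 8.14, 9.68 and 12.4 CPM in basal TEB, where the groups overlapped. Its interaction was 2.64 (FDR 0.033, edgeR), lost without basal duct replicate 1, 2 or 3 or basal TEB replicate 3 or luminal TEB replicate 1, 2 or 3, up to 0.126.

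The other 4 are basal genes with a small level in luminal libraries. Irx4, a homeobox transcription factor, was at 225, 230.2 and 256 CPM in basal duct and 149, 195 and 206 CPM in basal TEB, and at 0.774 and 1.60 CPM in luminal duct and 0.0448, 0.114 and 0.0578 CPM in luminal TEB. Lgals7 (galectin-7, of stratified epithelia) was at 30.6 and 31.3 CPM in luminal duct and 6.46, 10.31 and 6.26 CPM in luminal TEB, Mdk (the growth factor midkine) at 4.46 and 6.87 CPM in duct and 1.48, 1.94 and 1.12 CPM in TEB, and Adamts9 (a protease of versican) at 19.9 and 10.6 CPM in duct and 4.80, 3.89 and 5.28 CPM in TEB. Luminal TEB lay under luminal duct in every library of all 4 genes. Their basal levels ran from 140.3 CPM (Mdk) to 488 CPM (Lgals7) by mean in ducts, so luminal duct held 0.502% (Irx4), 6.34% (Lgals7), 4.04% (Mdk) and 9.20% (Adamts9) of the basal duct level. The contractile genes Acta2 and Mylk, defining markers of basal cells, also stood lower in luminal TEB than in luminal duct, Acta2 at 34.6 and 103 CPM in luminal duct and 10.8, 8.67 and 5.14 CPM in luminal TEB, and their part in these falls was not tested. The 16 contractile genes summed to 429.7 and 804 CPM in luminal duct and to between 405 and 463 CPM in luminal TEB. The interactions of the 4 genes were 3.54, 2.26, 2.49 and 2.17 (FDR 0.0126, 0.0253, 0.0145 and 0.0273, edgeR), kept in 8, 6, 7 and 5 of 11 fits with a library left out, with FDRs of up to 0.063 and 0.0797 without luminal TEB replicate 3 and 0.0584 and 0.0942 without basal duct replicate 1.

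**Figure D3:**
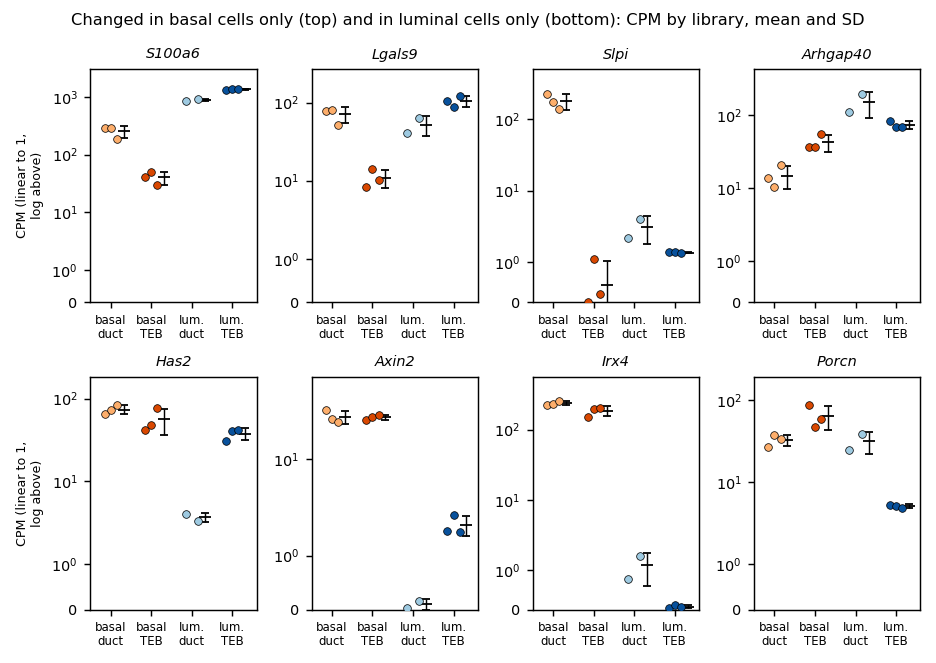
CPM in each of the 11 libraries for 4 genes called in basal cells only (top) and 4 called in luminal cells only (bottom), with 1 point a library, the mean and SD of each group beside it, and an axis that is linear up to 1 CPM and logarithmic above. S100a6, Lgals9 and Slpi drop from basal duct to basal TEB, Has2 and Axin2 rise and Irx4 and Porcn fall from luminal duct to luminal TEB.

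Of the 7 genes with only the interaction called, Dnm1, the dynamin of vesicle release in neurons, was the one with a positive value. It was at 0.579, 2.37 and 0.693 CPM in basal duct, 6.70, 3.16 and 3.16 CPM in basal TEB, 38.5 and 66.3 CPM in luminal duct and 8.23, 10.5 and 8.07 CPM in luminal TEB. TEB and duct were separate in both populations and moved towards each other, with an interaction of 4.38 (standard error 0.83, FDR 0.0491, edgeR), lost in 8 of 11 fits with a library left out (up to 0.163, without luminal TEB replicate 3). The other 6 were Popdc2, Kalrn, S100a14, Pam, Plekha7 and Vcl, with interactions from -1.40 (Vcl, the adhesion protein vinculin) to -3.01 (Kalrn, a guanine nucleotide exchange factor) apart from Popdc2.

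All 24 genes called in both populations in the same direction were lower in TEBs, which is 10.4% of the basal and 9.80% of the luminal calls. Genes called higher in TEBs in both populations were among such calls in DESeq2 (36 of 128), the likelihood ratio test (28 of 100), limma voom (5 of 25) and the fits without luminal duct replicate 1 (5 of 49) or basal duct replicate 3 (3 of 21), and 7 other alternatives had 1 or 2. TEB and duct libraries were separate in both populations in 24 of 24, against 9.55% of all genes. These genes were selected by both tests on the same libraries, so their separation is largely set by that selection. The named genes are Igfbp5, Krt14, Lmod1, Oxtr, Rin2, Slc7a2, Tcim and Tppp3, and the others described are the keratins Krt5, Krt15 and Krt17, the contractile genes Tagln and Pdlim3, Fhod3, the matrix genes Matn4, Prelp and Ecm1, the growth factor binding protein Igfbp3, Trf, Txnip, Ypel3, Npr2 and the non-coding Snhg11. A missing interaction call does not show equal changes. The median half-width of the 95% interval of the interaction over the 24 genes was 1.08 on the log2 scale, and the interval lay within 1 log2 unit of 0 in 2 of them, Rin2 (-0.60 to 0.38) and Ypel3 (-0.76 to 0.62). The sign of the interaction changed in at least 1 of the 23 alternatives in 14 of the 23 genes described, and the interaction was called in 1 alternative for 1 of them, Igfbp3. With the replicate block the call was lost in 1 population or both for Tagln (basal FDR 0.056, luminal 0.066), Igfbp3 (basal 0.056), Ecm1 (luminal 0.075), Krt5 (luminal 0.0772) and Matn4 (luminal 0.0853, edgeR).

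Oxtr (Entrez gene 18430, chromosome 6, 112473683 to 112491035) encodes the oxytocin receptor of myoepithelial cells. It was at 832, 757 and 893 CPM in basal duct and 101, 138 and 95.9 CPM in basal TEB, and at 12.4 and 26.9 CPM in luminal duct and 3.16, 2.21 and 1.56 CPM in luminal TEB. The basal change was -2.89 (FDR 0.00175) and the luminal change -3.09 (FDR 0.00414, edgeR), both called with each library left out, and the interaction was 0.20 (95% interval -0.78 to 1.17). Luminal duct held 2.37% of the basal duct level and luminal TEB 2.07% of the basal TEB level.

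Tppp3 (Entrez gene 67971, chromosome 8, 105467492 to 105471422), which bundles microtubules, was at like levels in both populations, with 50.8, 53.8 and 38.0 CPM in basal duct, 4.39, 3.73 and 4.93 CPM in basal TEB, 74.1 and 30.1 CPM in luminal duct and 4.04, 4.78 and 5.09 CPM in luminal TEB. Every TEB library lay under every duct library. Its changes of -3.45 in basal (FDR 0.00133) and -3.49 in luminal cells (FDR 0.00377, edgeR) were called in all 23 alternatives run, and the interaction was 0.04 (95% interval -1.03 to 1.11). Oxtr and Tppp3 were also the 2 genes left when the larger of the basal and luminal p-values was adjusted over all genes.

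Igfbp5 (Entrez gene 16011, chromosome 1, 72858065 to 72874865), a secreted binding protein of insulin-like growth factors, was at 6158, 7506 and 6446 CPM in basal duct, 1351, 1987 and 1483 CPM in basal TEB, 954 and 1417 CPM in luminal duct and 217, 313 and 176.6 CPM in luminal TEB. Both falls were of about the same size, -2.06 (FDR 0.00545) and -2.33 (FDR 0.00864, edgeR), with an interval of the difference from -0.64 to 1.18. The basal FDR was 0.0514 without basal TEB replicate 3.

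Rin2, a Rab5 exchange factor, and Slc7a2, a transporter of arginine and lysine, were higher in luminal than in basal cells and fell in both. Rin2 was at 143, 138 and 141 CPM in basal duct, 52.0, 65.6 and 65.6 CPM in basal TEB, 619 and 534 CPM in luminal duct and 275, 260.3 and 275 CPM in luminal TEB, with -1.20 in basal (FDR 0.00317) and -1.09 in luminal cells (FDR 0.0122, edgeR; 0.0721 without luminal TEB replicate 3). Slc7a2 fell by 1.40 on the log2 scale in basal (FDR 0.015, and 0.104 without basal TEB replicate 3) and by 2.16 in luminal cells (FDR 0.00517, edgeR), with an interval of the difference from -0.00 to 1.51. Tcim, a small positive regulator of Wnt target genes, fell by 1.37 (FDR 0.00656, and 0.0514 without basal TEB replicate 3) and by 2.02 (FDR 0.00377, edgeR), with an interval from -0.00 to 1.29, so that for neither gene was a larger luminal fall shown.

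In 9 of the 24 genes luminal duct held less than 5% of the basal duct level. Krt14, the intermediate filament of basal cells, was at 2614, 2853 and 1789.6 CPM in basal duct, 275, 468 and 248 CPM in basal TEB, 14.3 and 18.8 CPM in luminal duct and 0.785, 3.07 and 1.23 CPM in luminal TEB, and luminal held 0.684% of the basal level in ducts and 0.513% in TEBs. Lmod1, which nucleates actin in smooth muscle, was at 153, 171 and 140.4 CPM in basal duct, 18.9, 52.0 and 22.9 CPM in basal TEB, 4.67 and 2.88 CPM in luminal duct and 0.471, 0.229 and 0.520 CPM in luminal TEB, with 2.43% and 1.30%. For such genes a change within luminal cells and a change in the basal RNA that luminal libraries hold cannot be told apart. Krt5, with 7.69 and 20.3 CPM in luminal duct, and Krt14 were higher in luminal duct replicate 3 than in replicate 1. Without luminal duct replicate 3 the luminal change of Krt5 had an FDR of 0.271 and that of Tagln 0.237 (edgeR). Limma voom, another test, gave an FDR of 0.172 for luminal Krt14 and 0.232 for luminal Lmod1.

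In this edgeR model no gene was called higher in TEBs in both populations, and the 3 closest were Ankrd6, Ncapg2 and Stmn1. Ncapg2, a condensin subunit of mitotic chromosomes, was at 39.7, 21.9 and 41.6 CPM in basal duct, 104, 66.0 and 64.6 CPM in basal TEB, 14.1 and 16.2 CPM in luminal duct and 49.97, 53.3 and 58.2 CPM in luminal TEB. All TEB libraries lay above all duct libraries in both populations, and the luminal change of 1.83 was called (FDR 0.0209) while the basal one of 1.18 was not (FDR 0.0618, edgeR). Stmn1, a microtubule destabiliser of dividing cells, had differences of 0.75 (FDR 0.0941) and 1.00 (FDR 0.0484), and Ankrd6, which acts in Wnt signalling, of 1.21 (FDR 0.0906) and 1.45 (FDR 0.0804, edgeR). Stmn1 lost the luminal call in 7 of 11 fits with a library left out (FDR up to 0.177, without luminal duct replicate 3).

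**Figure D4:**
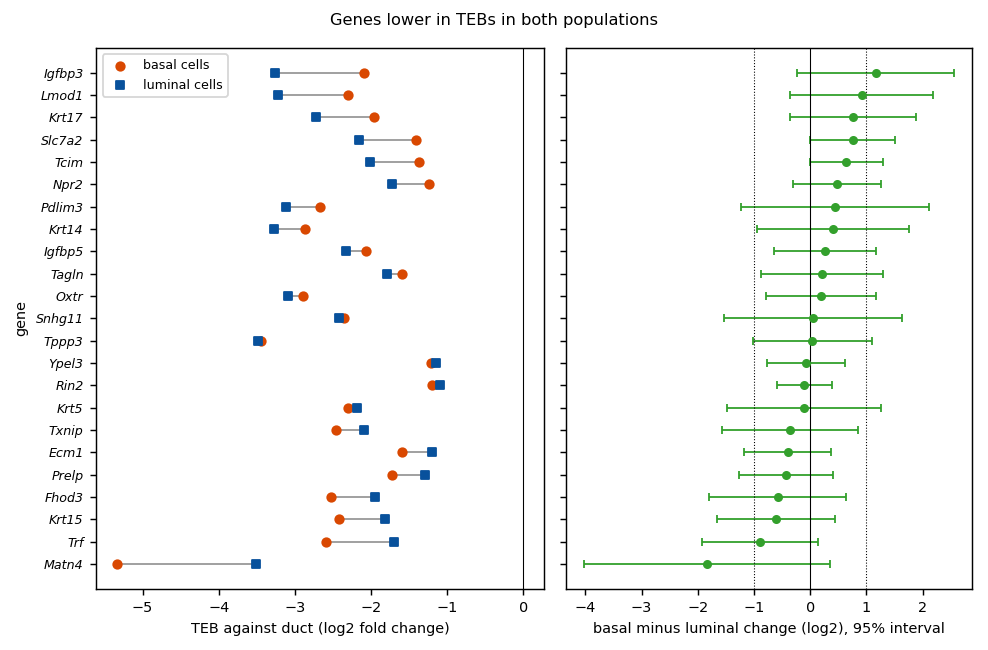
Left, log2 fold change of TEB over duct for 23 of the 24 genes called lower in both populations, with basal cells as circles and luminal cells as squares. Right, the basal minus luminal difference of the same genes with its 95% interval and dotted lines at 1 log2 unit either side of 0. Every interval includes 0, and those of Rin2 and Ypel3 alone stay within the dotted lines.

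Promoters of the called genes were read from RefSeq sequence of GRCm38.p6, the assembly behind mm10, as the 250 bases before each annotated start. A promoter was given for 62 of the 77 interaction genes and for 15 of the 24 genes changed alike. The letters of 8 motifs, chosen after the expression values were seen, were searched on both strands. Shares are given for the 27 genes called in basal cells only, the 25 called in luminal cells only and all 27025 genes with a promoter, and for the 62 and the 15 above. The 27025 include genes that were not tested here, and a gene was counted if any of its promoters held the letters. TGANTCA, the letters bound by AP-1 (Fos and Jun), was present for 6 of the 27 (22.2%), 2 of the 25 (8%) and 7.82% of all. TATAAA was present for 7 of the 27 (25.9%), 2 of the 25 (8%) and 14.3% of all, and CCAAT for 7 of the 27 (25.9%), 14 of the 25 (56%) and 37.5% of all. GGAATG, the letters bound by TEAD factors, was present for 1 of the 27 (3.7%), 4 of the 25 (16%) and 14.4% of all, and for 6 of the 15 genes changed alike (40.0%) and 8 of the 62 (12.9%). CTTTGA was found for 1 of the 27, 4 of the 25 and 15.8% of all, and the E-box CACCTG for 7 of the 27, 6 of the 25 and 19.4% of all. The CArG box of contractile genes was found for none of the 27, the 25 or the 15 and for 1.62% of all, and the half-site of the p53 family for none of the 27 or the 25 and 8.20% of all. For the 15 and the 62 the matches were 1 and 9 for TGANTCA, 4 and 15 for CACCTG and 6 and 25 for CCAAT. They were 1 and 9 for TATAAA, 1 and 6 for CTTTGA and 1 and 2 for the p53 half-site. The CArG box was found for 1 of the 62. A match describes the letters and no binding was measured. The promoters below are of 1 gene called in basal cells only, 1 in luminal cells only and 2 changed alike, shown because they hold the AP-1 letters (Anxa2 and Gja1) or the TEAD letters on either strand (Igfbp5 and Lmod1), which stand in capitals. They lie at chr9:69453433-69453682 on the plus strand, chr10:56377050-56377299 on the plus strand, chr1:72874866-72875115 on the minus strand and chr1:135324563-135324812 on the plus strand.
Anxa2: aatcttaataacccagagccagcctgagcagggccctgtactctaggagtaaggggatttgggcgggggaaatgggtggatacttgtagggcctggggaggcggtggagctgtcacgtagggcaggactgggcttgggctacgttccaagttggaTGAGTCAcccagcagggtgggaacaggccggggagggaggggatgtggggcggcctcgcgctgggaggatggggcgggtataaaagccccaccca
Gja1: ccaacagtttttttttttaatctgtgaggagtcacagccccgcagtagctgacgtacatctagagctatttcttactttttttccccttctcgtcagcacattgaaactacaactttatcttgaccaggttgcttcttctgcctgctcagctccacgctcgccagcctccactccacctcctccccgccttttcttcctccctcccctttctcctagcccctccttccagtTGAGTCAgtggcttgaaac
Igfbp5: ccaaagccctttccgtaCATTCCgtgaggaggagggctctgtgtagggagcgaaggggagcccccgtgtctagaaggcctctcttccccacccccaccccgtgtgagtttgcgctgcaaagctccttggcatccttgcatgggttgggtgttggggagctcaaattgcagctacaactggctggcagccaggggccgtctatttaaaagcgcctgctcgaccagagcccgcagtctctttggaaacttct
Lmod1: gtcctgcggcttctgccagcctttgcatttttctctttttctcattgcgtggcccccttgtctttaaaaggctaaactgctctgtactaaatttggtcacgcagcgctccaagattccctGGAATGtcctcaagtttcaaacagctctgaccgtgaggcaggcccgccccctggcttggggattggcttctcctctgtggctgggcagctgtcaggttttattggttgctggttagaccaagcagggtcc

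Of 37 lists of genes by pathway or cell type, 6 held an interaction call, none more than 2, against 0.443% of all genes called. In the 20 basement membrane genes these were Lamb3, described above, and Col4a6, a collagen IV chain, both negative. Col4a6 was at 474, 394 and 371 CPM in basal duct, 233, 195 and 156 CPM in basal TEB, 61.6 and 86.1 CPM in luminal duct and 97.2, 125 and 114 CPM in luminal TEB. TEB was lower than duct in every basal library and higher in every luminal one, with an interaction of -1.68 (FDR 0.0383, edgeR, lost without basal duct replicate 1, 2 or 3 or basal TEB replicate 3 or luminal TEB replicate 1, 2 or 3, up to 0.114). The median interaction of this list was 0.29, against -0.13 over all genes.

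Of the signalling lists, those of TGF-beta and BMP, Wnt and Notch held 1 or 2 calls, and those of EGF, FGF, IGF and guidance factors held none. In the 23 TGF-beta and BMP genes tested, the receptor Tgfbr2 was negative and the latent binding protein Ltbp1 positive, and the median interaction was -1.03. In luminal cells Tgfbr2 rose, as did Tgfbr1 and Bmp7, while Ltbp1 and Tgfb3 fell. These 3 rises and 2 falls stand beside 0.639% and 0.771% of all genes, and Tgfbr1, Bmp7 and Tgfb3 had no interaction called. In the 30 Wnt genes Axin2 was the one call, with a median of -0.45 and Porcn outside the list, and in the 19 Notch genes it was Jag1, a ligand of Notch. Jag1 was at 164, 224 and 159 CPM in basal duct, 100.3, 95.2 and 98.3 CPM in basal TEB, 48.1 and 68.3 CPM in luminal duct and 92.4, 96.0 and 109 CPM in luminal TEB. The basal and luminal levels of Jag1 thus differed in ducts and were alike in TEBs, with an interaction of -1.67 (FDR 0.0291, edgeR, lost without basal duct replicate 1 or basal TEB replicate 3 or luminal TEB replicate 1, 2 or 3, up to 0.106). Of the 18 proteases and inhibitors tested, Timp2, which blocks matrix metalloproteinases, had an interaction of -1.90 (FDR 0.0253, edgeR, lost without basal duct replicate 1 or basal TEB replicate 3 or luminal TEB replicate 1, 2 or 3, up to 0.0921), with 75.3 and 48.9 CPM in luminal duct and 143, 175 and 161 CPM in luminal TEB, where it rose.

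Of the 25 interferon and antigen presentation genes, 20 had a negative interaction by sign, with a median of -1.11 and 1 call, H2-D1. Over all genes the median was -0.13, and -0.63 with scaling by library size alone, so negative signs were the more common there too. The 20 immediate early genes had a median of -0.69. Of these, 7 were called lower in basal TEBs (Atf3, Btg2, Dusp1, Fos, Fosb, Junb and Zfp36), against 1.16% of all genes. None was called in luminal cells, where 1.41% of all genes were, and no interaction was called. Fos was at 3908, 5680.1 and 5146 CPM in basal duct, 1229, 1897 and 2003 CPM in basal TEB, 3793 and 3657 CPM in luminal duct and 2190.5, 2074 and 3085 CPM in luminal TEB, lower in TEBs in both populations in every library. Its interaction of -0.92 had an FDR of 0.332 (edgeR), so a difference between the populations was not shown for it.

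None of the 3 cell cycle lists held an interaction call. Over all genes the median interaction was -0.13, so negative signs were the more common there. The median interaction was -0.88 over 22 mitosis genes, of which 18 were negative by sign, and -0.81 over 25 DNA replication genes, of which 22 were. Over 15 genes of cell cycle entry it was 0.19, and 5 were negative. The median change was higher in TEBs in both populations, 0.72 in basal and 1.58 in luminal cells for mitosis and 0.54 and 1.45 for DNA replication, and 0.56 and 0.22 for cell cycle entry. Birc5 rose in basal TEBs, Cenpe and Plk1 in luminal TEBs, and Mcm3, Mcm5, Mcm6 and Rrm2 in luminal TEBs. Of the 15 genes of cell cycle entry, 1 was called higher in basal TEBs and 1 lower in luminal TEBs. Among all genes tested, 0.167% were called higher in basal TEBs, and 0.639% higher and 0.771% lower in luminal TEBs. Mki67, the usual marker of dividing cells, was at 311, 117 and 338 CPM in basal duct, 456, 492 and 725 CPM in basal TEB, 159 and 227 CPM in luminal duct and 395, 366 and 395 CPM in luminal TEB. TEB lay above duct in every library of both populations, and the interaction was 0.13 (95% interval -0.97 to 1.23, FDR 0.955, edgeR), with a sign that changed in 6 of 23 alternatives.

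Of 16 contractile genes 4 were called lower in basal TEBs (Lmod1, Oxtr, Smtn and Tagln), against 1.16% of all genes. In luminal TEBs 9 were called lower (Acta2, Actg2, Cnn1, Lmod1, Myh11, Myl9, Mylk, Oxtr and Tagln), against 0.771% of all genes. Their median change was -1.25 in basal and -2.93 in luminal cells, with no interaction call. Without the 2 libraries of highest mitochondrial share the luminal median was -1.69. Acta2, smooth muscle actin, was at 6457, 7032 and 5994 CPM in basal duct and 3066, 4714 and 3353 CPM in basal TEB, a difference of -0.81 that did not pass (FDR 0.368, edgeR), and its interaction of 2.26 did not pass either (FDR 0.128). Of 15 basal identity genes 5 were called lower in basal TEBs (Itgb4, Krt5, Krt14, Krt17 and Lgr5), against 1.16% of all genes. In luminal TEBs 5 were (Cxcl14, Krt5, Krt14, Krt17 and Snai2), against 0.771% of all genes. The median interactions of both lists, 0.56 and 0.50, turned negative without the 2 libraries of highest mitochondrial share, at -0.16 and -0.37.

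Marker lists of other cell types held no interaction call. The fibroblast markers summed to between 539 and 1023 CPM in basal libraries and to between 10.2 and 284 CPM in luminal ones, and the immune markers to at most 264 CPM in any library. Endothelial markers summed to between 16.6 and 288 CPM in basal duct and between 5.38 and 55.2 CPM in basal TEB. Adipocyte markers summed to between 10.7 and 212 CPM and between 8.20 and 31.6 CPM in the same groups. Their part in the basal falls was not tested. Mitochondrial genes had the highest list median, 4.31, again without a call, that of pericyte and nerve markers was -4.96 with 7 members at 0 in luminal duct, and 83 ribosomal protein genes had a median of 0.75.

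The number of calls varied with the library left out. Leaving out luminal duct replicate 1 gave 753 interaction calls and replicate 3 gave 119. Without the luminal TEB libraries, in order, there were 14, 33 and 9, without the basal duct libraries 7, 51 and 74, and without the basal TEB libraries 80, 352 and 24. All 77 genes kept the sign of the interaction in each of the 23 alternatives. Of the 77, 7 were called with each of the 11 libraries left out, namely Has2, Lgals9, Map6, Porcn, Prss23, S100a6 and Tgfbr2, and 38 in at least 6 of the 11 fits. With the mitochondrial share of each library as a covariate no gene was called for the interaction in edgeR. An unadjusted p under 0.05 was found for 1114 of 17370 genes, compared with 2559 without the covariate. A share of 0.05 of tests would reach that level with no true difference. The mitochondrial share was 4.34% to 4.77% in luminal TEB and 8.51% and 28.5% in luminal duct, so in luminal cells it was not separate from structure. The Wald test of DESeq2 called 712 and limma voom 95, without the covariate.

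**Figure D5:**
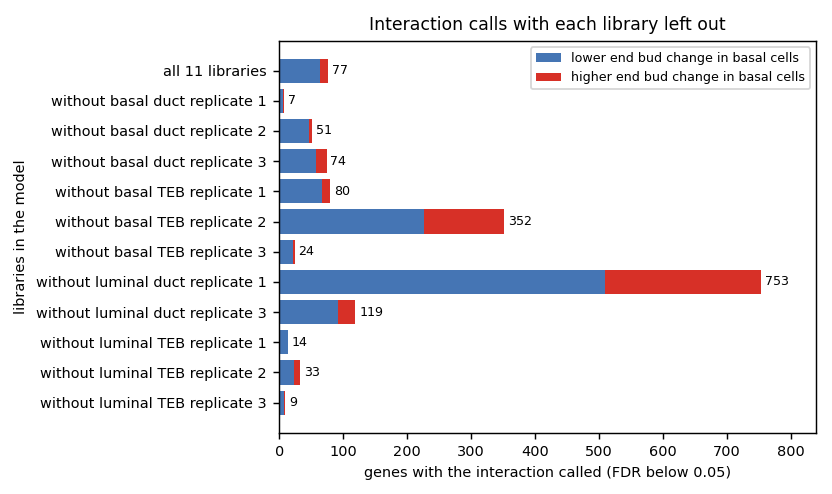
Number of genes called for the interaction (x axis) in the model of all 11 libraries and with each library left out (y axis), split into genes with a lower and a higher end bud change in basal cells. The bar without luminal duct replicate 1 reaches 753 and that without basal duct replicate 1 reaches 7, against 77 with all libraries.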

How the data were processed

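Libraries were made by the study from polyA RNA of sorted cells. The authors counted reads per gene on mm10 with featureCounts, named in the submitters' processing notes, and deposited raw counts with no normalization. The contrast, its genes and the gene lists were chosen with earlier results of these data known.

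Symbols were matched to 25275 of 27179 Entrez gene IDs from RefSeq. The deposited counts were tested with edgeR 4.0.16 (R 4.3.3) by quasi-likelihood, after filterByExpr (minimum count 10, minimum total 15), TMM scaling and 1 model of 4 groups. Basal and luminal changes and their difference were contrasts of that model, adjusted by Benjamini-Hochberg. A gene was called in 1 population only where that change and the interaction passed, and alike where both changes passed in 1 direction and the interaction did not. Standard errors are the log2 fold change over the square root of F. A floor of 3 counts stood for groups at 0. Totals were 27989137 to 49221436 counts, and intervals on counts cover counting error only.

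Genes were named, at a mean log2 CPM of at least 4 in the highest group, as up to 12 a direction by size of a called interaction and up to 8 a class and direction by the larger p, with 3 of each class and direction where fewer passed. List members called for the interaction were added. Of the genes changed alike, 1 is not reported here. The Cavin genes, Krt5, Tagln, Acta2, Fos, Mki67, the promoter motifs and the 4 promoters printed were chosen after their values were seen. The AP-1 and TCF motifs were widened by a base after a first search with narrower letters.

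The methods describe each replicate as pooled mice, dissected and then sorted, so samples of 1 number may share a pool, which the labels do not state. In 4 of 15 pairs of the same number the deviations from group means correlated above 0.1 (-0.0677 to 0.163). The median was 0.0689 in these 15 pairs and -0.0264 in the 30 pairs of different numbers (-0.163 to 0.137). With the block 35 of the 77 interaction calls were lost and 4 gained, and the blocked values stand beside the results they change.

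Alternatives were DESeq2 1.42.0 and limma 3.58.1 voom, other scalings and filters, a replicate block, the mitochondrial share and leaving out libraries. Simulated data held 16333 genes with 100 changed interactions at each size. On them edgeR recovered 34% at a log2 change of 2 and 60% at 3, with 2.08% false calls. DESeq2 recovered 47% and 68% with 31.1% false calls, and voom 24% and 40% with 0%. These rates describe the simulated data, and the share of false calls among the interactions called in the deposited libraries was not tested. Changes were placed only in genes with expected counts well above 0 in every library, and libraries were drawn independently. For genes with a group at or near 0 counts, such as Map6 and Axin2, recovery was thus not simulated.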

Additional observations from a re-analysis of the deposited data

Results flagged for a closer look

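In 38 of the genes named by interaction size or by class, the change from duct to TEB differed between basal and luminal cells. The test was that of the difference itself, the interaction in edgeR at a Benjamini-Hochberg adjusted p below 0.05. Other genes described above with a called interaction, such as Jag1, Col4a6, Timp2, Kalrn and the Cavin genes, are not listed again. With 2 or 3 libraries a group, single samples were not tested for standing apart within their group. The values are the basal minus the luminal log2 fold change.

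The change was lower in basal cells in Slpi (-7.24), Scin (-5.44), Sec14l4 (-4.99), Abat (-4.93), Elovl4 (-4.72), Axin2 (-4.66), Clca3a2 (-4.28), Has2 (-3.75), Lgals9 (-3.71), S100a6 (-3.27), Prss23 (-3.09), Gja1 (-2.44), Ehd2 (-2.37), Anxa2 (-2.31), Capg (-2.30), H2-D1 (-2.28), Tgfbr2 (-2.15), Lamb3 (-1.92), Emp2 (-1.89), Tmtc3 (-1.85), Lrrk1 (-1.80) and Cx3cl1 (-1.78). It was also lower in Map6 (-10.9), Popdc2 (-8.19), Rhbdl3 (-6.95) and Ptprm (-6.92), where both luminal duct libraries were at 0 counts and the fitted value depends on the prior count and is no bound.

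The change was higher in basal cells in Dnm1 (4.38), Porcn (3.6), Irx4 (3.54), Cst3 (2.66), Slc5a6 (2.64), Arhgap40 (2.56), Ltbp1 (2.55), Mdk (2.49), Coro2a (2.33), Ggt1 (2.27), Lgals7 (2.26) and Adamts9 (2.17).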

How the results depend on the processing

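All 77 genes kept the sign of the interaction in each of the 23 alternatives, and none was called in all of them. Of 5520 gene values recomputed, 4105 kept their direction and their side of the threshold, 1331 lost the call, 26 gained one and 58 changed sign. Counts follow in the order interaction, basal, luminal, basal only, luminal only, opposite and alike, which were 77, 230, 245, 33, 32, 5 and 24. Scaling by library size alone gave 15, 57, 10, 7, 3, 0 and 1, DESeq2 712, 874, 1277, 217, 349, 28 and 128, and the likelihood ratio test 629, 707, 1006, 183, 291, 23 and 100. The mitochondrial share as a covariate gave 0, 134, 21, 0, 0, 0 and 7 in edgeR, with 1114 genes at an unadjusted interaction p under 0.05. No filter gave 141 interaction, 61 basal only and 62 luminal only calls, limma voom 601 basal, 54 basal only and 9 opposite calls, and voom with sample quality weights 412 basal, 17 luminal only and 1 opposite. Without the 2 libraries of highest mitochondrial share there were 198 interaction, 372 luminal, 51 basal only, 109 luminal only and 13 opposite calls. With the larger p adjusted, 0 opposite and 2 alike were left. Leaving out 1 library gave 7 to 753, 59 to 399, 37 to 1305, 3 to 158, 4 to 564, 0 to 17 and 6 to 49. DESeq2 size factors, a minimum mean CPM of 1 and removal of mitochondrial genes moved no count by over 1.5 times. The replicate block gave 46 interaction, 125 luminal, 20 basal only, 17 luminal only and 1 opposite call. The block gained no call among the genes described and changed no calls of theirs beyond those given above. The cause of these differences was not tested.

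The 58 changes of sign all concern interactions that were not called, in Mki67, in Ankrd6, whose estimates were higher in TEBs in both populations without a call, and in genes called lower in TEBs in both, so no direction is given for them. Without the 2 libraries of highest mitochondrial share it was Igfbp3 -0.304, Krt17 -0.136, Mki67 -0.0379, Oxtr -0.404, Pdlim3 -0.378, Rin2 0.0902, Snhg11 -0.256 and Tagln -0.614. With library size alone it was Igfbp5 -0.238, Krt14 -0.0720, Mki67 -0.438, Npr2 -0.0381, Oxtr -0.352, Pdlim3 -0.105, Snhg11 -0.482, Tagln -0.336 and Tppp3 -0.438. With replicate block it was Mki67 -0.0282, Snhg11 -0.110, Tppp3 -0.00608 and Ypel3 0.00584. With limma voom with sample quality weights it was Oxtr -0.0324, Snhg11 -0.189, Tagln -0.0715 and Ypel3 0.0478. With mitochondrial share as covariate it was Rin2 0.155 and Ypel3 0.0911. With limma voom it was Snhg11 -0.437 and Tagln -0.100. With 1 library left out it ran from -0.585 to 0.0645 for Ankrd6, from -0.940 to 0.00361 for Fhod3, from -0.317 to 1.90 for Igfbp3, from -0.0417 to 0.526 for Igfbp5, from -0.168 to 1.33 for Krt17, from -0.967 to 0.428 for Krt5, from -0.215 to 0.384 for Mki67, from -0.463 to 0.653 for Oxtr, from -0.399 to 1.38 for Pdlim3, from -0.571 to 0.498 for Snhg11, from -0.720 to 0.762 for Tagln, from -0.753 to 0.547 for Tppp3 and from -0.230 to 0.0850 for Ypel3.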
